A study of Rattus norvegicus with 6 samples.

Results

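Levels of 4 glutamate signalling genes were examined in fetal rat forebrain, namely the vesicular glutamate transporters Slc17a6 (ENSRNOG00000016147) and Slc17a7 (ENSRNOG00000020650) and the NMDA receptor subunits Grin1 (ENSRNOG00000011726) and Grin2b (ENSRNOG00000008766). The 4 genes were given as a list of Ensembl identifiers whose rule uses no measured value, although earlier results of these data were known when the list was drawn up, and all 4 are among the 17581 genes of the deposited table. Each also passed the low-count filter that left 13617 genes for testing. The deposited table gives identifiers without symbols, and the 4 symbols are those that accompany the list.

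RNA from 6 forebrains was sequenced, 3 from control fetuses and 3 from fetuses whose dams received the high dose of FM550, a flame retardant sold as a blend of brominated compounds and organophosphates. All fetuses were labelled as male Wistar rats, an outbred strain, at gestational day 18, and each dam was given a treated food piece daily over 10 days, gestational days 9 to 18. The treat carried vehicle with 0 µg of FM550 for controls and 1000 µg for the high-dose group, a daily exposure near 3.3 mg per kg, and tissue was collected 4 hours after the last one. The labels name no transgene or deletion in either group and do not say whether fetuses of a group had different mothers, so p-values measure the spread among these samples. Forebrain was cut out of frozen, cryosectioned heads, and in such bulk tissue fewer cells of a type and less RNA per cell cannot be told apart.

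Glutamate is the main excitatory transmitter of the forebrain. It is packed into synaptic vesicles by vesicular transporters, of which Slc17a6 encodes VGLUT2, used widely in thalamus, hypothalamus and brainstem and early in cortical development, and Slc17a7 encodes VGLUT1, which becomes the main transporter of mature cortical and hippocampal neurons. On the receiving side, NMDA receptors are calcium-permeable channels that open when glutamate and a co-agonist bind while the membrane is depolarised. Grin1 encodes GluN1, the subunit that every NMDA receptor needs, and Grin2b encodes GluN2B, the GluN2 subunit that predominates in the fetal forebrain.

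The stretch of 250 bases before the annotated start is shown for the 3 genes with an entry in the RefSeq promoter table (build GRCr8, both strands searched), because the ratios of the transporter genes to Grin1 are among the comparisons made. Capitals mark GC boxes (GGGCGG, read on either strand), a motif of many promoters without a TATA element. Each sequence runs 5′ to 3′ along the gene's strand, at chr1:110348197-110348446 (plus strand) for Slc17a6, chr1:104785955-104786204 (plus strand) for Slc17a7 and chr3:28528755-28529004 (minus strand) for Grin1.
Slc17a6: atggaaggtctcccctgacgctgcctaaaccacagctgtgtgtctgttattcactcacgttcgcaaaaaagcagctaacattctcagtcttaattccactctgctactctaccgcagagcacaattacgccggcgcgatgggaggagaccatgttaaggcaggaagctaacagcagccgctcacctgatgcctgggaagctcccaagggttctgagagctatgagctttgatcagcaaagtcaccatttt
Slc17a7: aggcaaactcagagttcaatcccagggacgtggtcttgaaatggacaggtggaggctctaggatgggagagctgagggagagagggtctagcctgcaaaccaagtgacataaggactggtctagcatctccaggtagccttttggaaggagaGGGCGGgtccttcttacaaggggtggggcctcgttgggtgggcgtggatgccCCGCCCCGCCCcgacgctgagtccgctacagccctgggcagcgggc
Grin1: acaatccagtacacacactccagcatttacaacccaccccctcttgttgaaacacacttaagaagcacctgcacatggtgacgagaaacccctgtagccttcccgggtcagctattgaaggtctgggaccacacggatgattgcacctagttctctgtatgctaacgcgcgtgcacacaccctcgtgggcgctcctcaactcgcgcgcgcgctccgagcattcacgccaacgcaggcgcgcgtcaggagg
The Slc17a7 stretch holds 3 GC boxes, of which the 2 nearest the start lie on the opposite strand and share 1 base (positions 205 to 210 and 210 to 215, counted from 1 at the 5′ end), and the Slc17a6 and Grin1 stretches hold 0. A GC box occurred in 30.5% of the 33469 promoter stretches of this length. The letters TATAAA were found in 0 of the 3 stretches, against 12.9% of all. The letters TGACG, the half-site of the cAMP response element, occurred 1 time in Slc17a6, 2 times in Grin1 and 0 times in Slc17a7, and in 18.2% of all promoter stretches. None of these motifs overlapped another kind. Slc17a6 had a GC content of 50.8%, close to the median of 51.2% over all stretches, whereas Slc17a7 had 61.2% and Grin1 57.6%. These matches describe the letters only.

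Library totals ran from 10525138 to 27100394 counts, and both extremes were high-dose libraries. Libraries of a group differed by more than sampling noise in every pair. Across tested genes, the departure of control replicate 3 from its group correlated with that of high-dose replicate 2 at 0.41, so differences between groups are also given without both of them. The gene table used here pairs 0 of the 17581 identifiers with a symbol. Marker lists of neurons, progenitors, meninges, blood and other cell types and a list of other glutamate signalling genes were therefore not run, and the forebrain label could be looked at only through the 4 genes themselves, each of which had at least 310 counts in every library.

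None of the 4 genes passed the threshold between high-dose and control forebrain. Slc17a6 had the largest difference relative to its error of the 4, with a fitted high-dose level at 73.5% of control, and Slc17a7 was fitted at 87.8%. The NMDA subunits lay on the other side, Grin1 at 113% of control and Grin2b at 119%. At an adjusted p under 0.05, edgeR's quasi-likelihood test called 0 of the 4 members, where 0.00734% of all tested genes were called, and DESeq2 called 0 of the 4, where its background was 1.28%. At an unadjusted p under 0.05 edgeR listed 1 of the 4, Slc17a6, against 7.4% of all tested genes in either direction and 4.33% with lower values. That listing was lost without control replicate 2 (edgeR unadjusted p = 0.0786), control replicate 3 (0.114) or high-dose replicate 2 (0.0803), and with the last 2 of these left out together (0.142). Control and high-dose libraries overlapped for all 4, whereas they did not overlap for 11.7% of tested genes. The median log2 fold change of the 4 was -0.0082, beside 0.0030 over all tested genes, with 2 negative and 2 positive values.

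Slc17a6 was at 77.1, 100.2 and 111 CPM in control replicates 1, 2 and 3 and at 77.8, 54.7 and 79.5 CPM in high-dose replicates 1, 2 and 3, where CPM is the count scaled to a common library total, after TMM scaling between libraries. The groups overlapped, because control replicate 1 lay at the level of high-dose replicates 1 and 3, and high-dose replicate 2 was below every other library. Group levels were 96.0 ± 17.2 CPM (control) and 70.7 ± 13.8 CPM (high dose; SD, n = 3 each). The log2 fold change, high dose over control, was -0.44 (standard error 0.17, 95% interval -0.83 to -0.057). The test gave no call (edgeR quasi-likelihood test, unadjusted p = 0.0291, Benjamini-Hochberg adjusted p = 0.559). All 3 high-dose libraries were below the control mean, and 5.2% of the tested genes had a smaller p. The difference was -0.29 on the log2 scale without high-dose replicate 2, and -0.18 with control replicate 3 left out as well (edgeR adjusted p = 0.747 and 0.58).

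In the order of its levels, Slc17a6 was lowest in high-dose replicate 2, followed by control replicate 1, high-dose replicates 1 and 3, and control replicates 2 and 3. The counting intervals (exact Poisson, 95%, covering counting error only) of control replicate 1, 72.3 to 82.1 CPM, and of high-dose replicates 1 and 3, 74.5 to 81.1 and 74.2 to 85.1 CPM, overlapped, so these 3 neighbours could not be set apart. High-dose replicate 2, with an interval of 51.4 to 58.2 CPM on 992 counts, lay below all 3. The 2 highest controls had intervals of 95.5 to 105 and 105 to 117 CPM, which adjoined without overlapping.

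Slc17a7, the other transporter, was at 62.1, 72.9 and 103 CPM in control replicates 1, 2 and 3. In high-dose replicates 1, 2 and 3 it was at 68.1, 79.1 and 61.4 CPM. The groups overlapped, and control replicate 3 stood above the other 5 libraries, which lay between 61.4 and 79.1 CPM. Group levels were 79.4 ± 21.3 CPM (control) and 69.5 ± 8.93 CPM (high dose; SD, n = 3 each). The log2 fold change was -0.19 (standard error 0.18, 95% interval -0.59 to 0.22, edgeR adjusted p = 0.999). The sign of this difference was not stable: the log2 fold change was 0.044 without control replicate 3, and -0.055 when high-dose replicate 2 was left out too.

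Grin1 was at 56.8, 59.0 and 80.9 CPM in control replicates 1, 2 and 3 and at 63.9, 96.7 and 60.4 CPM in high-dose replicates 1, 2 and 3. High-dose replicate 2 was the highest and control replicate 3 the second highest, while the other 4 libraries lay within 56.8 to 63.9 CPM. Group levels were 65.6 ± 13.3 CPM (control) and 73.7 ± 20.1 CPM (high dose; SD, n = 3 each). The log2 fold change was 0.17 (standard error 0.20, 95% interval -0.28 to 0.63, edgeR adjusted p = 0.999). Without high-dose replicate 2 it was -0.074, and without that library and control replicate 3 it was 0.11.

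Grin2b was at 27.3, 23.0 and 40.2 CPM in control replicates 1, 2 and 3 and at 25.5, 52.1 and 29.3 CPM in high-dose replicates 1, 2 and 3. As with its partner subunit Grin1, high-dose replicate 2 was the highest and control replicate 3 the second highest, and the groups overlapped. Group levels were 30.2 ± 8.94 CPM (control) and 35.7 ± 14.4 CPM (high dose; SD, n = 3 each). The log2 fold change was 0.25 (standard error 0.29, 95% interval -0.42 to 0.91, edgeR adjusted p = 0.999), with the widest interval of the 4. It was -0.14 without high-dose replicate 2 and 0.12 without both that library and control replicate 3. Levels were not compared between genes, since no transcript lengths were used here.

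**Figure D1:**
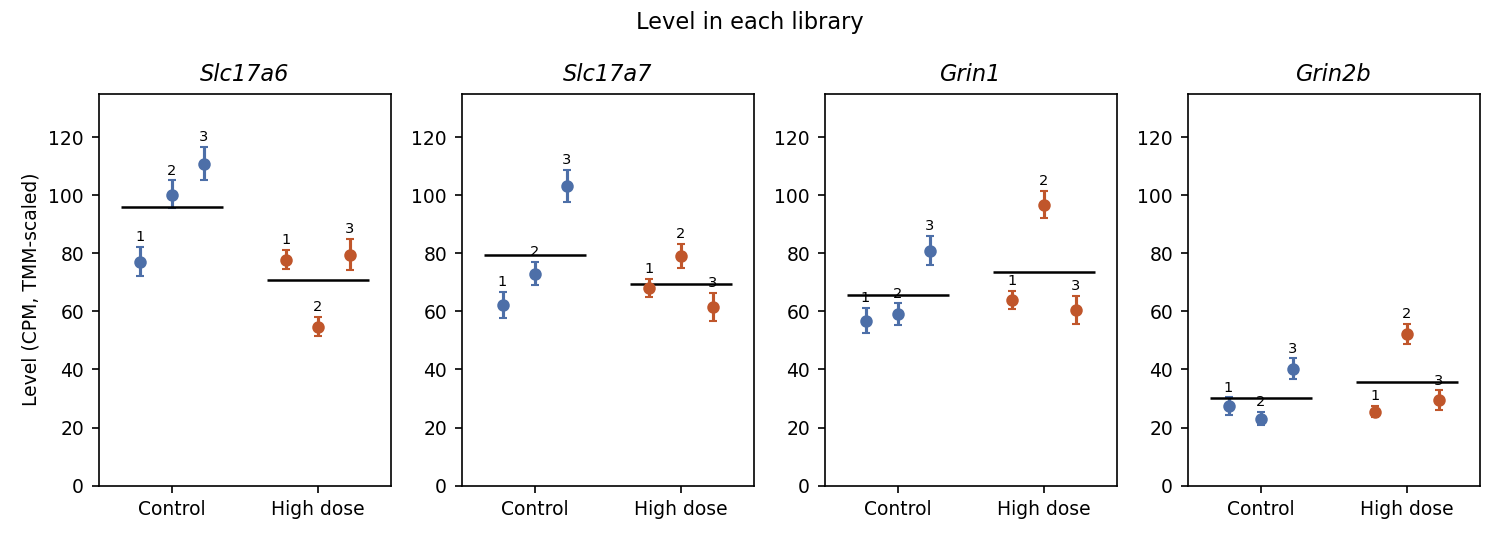
CPM (y axis, linear from 0) of each gene in the 3 control (blue) and 3 high-dose (orange) libraries, numbered by replicate, with exact Poisson 95% counting intervals as bars and the group mean as a black line. Slc17a6 is lowest in high-dose replicate 2 at 54.7 CPM, whereas Grin1 and Grin2b are highest there at 96.7 and 52.1 CPM.

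**Figure D2:**
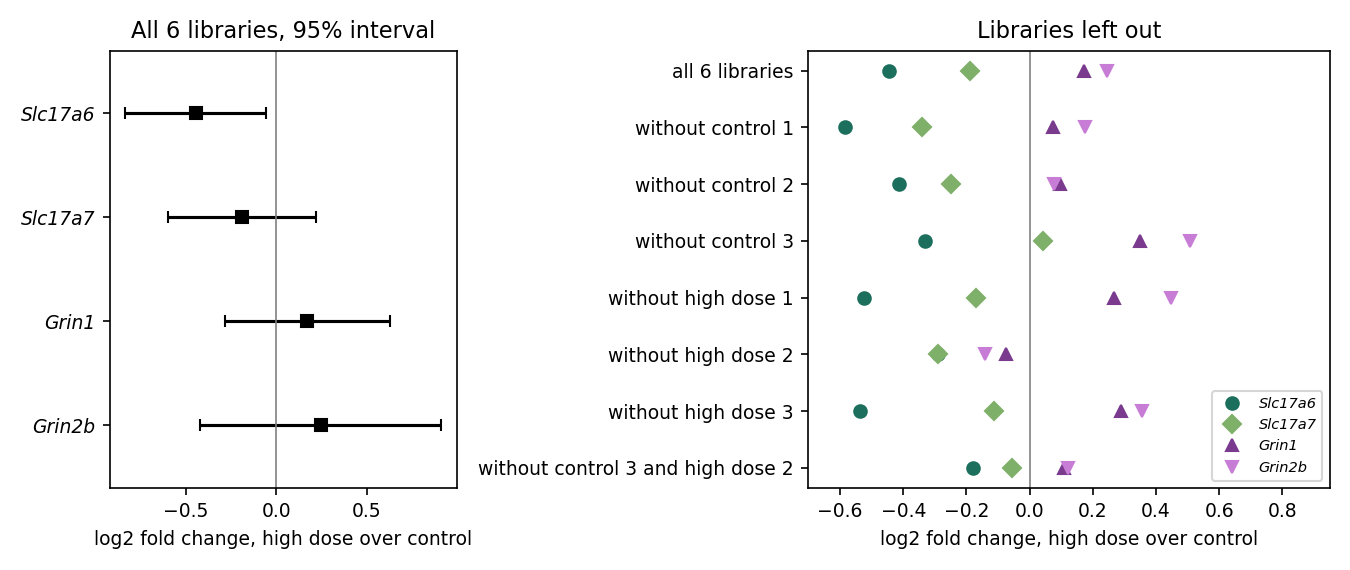
Left, log2 fold change of high dose over control with its 95% interval from the edgeR fit on all 6 libraries. Right, the same fold change with libraries left out, 1 symbol per gene: Slc17a6 stays below 0 in all 8 settings, between -0.58 and -0.18, while Grin1 and Grin2b lie below 0 without high-dose replicate 2 and Slc17a7 lies above 0 without control replicate 3.

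The 95% intervals state what the design could resolve. As percentages of the control level, they run from 56.2% to 96.1% for Slc17a6, from 66.2% to 116% for Slc17a7, from 82.1% to 154% for Grin1 and from 74.7% to 188% for Grin2b. A doubling and a halving lie outside each of the 4 intervals, which belong to the reported fit on all 6 libraries. Smaller differences in either direction lie inside the last 3, so similar levels in the 2 groups were not shown. Intervals of the other settings were not computed, so a doubling or a halving is not excluded there. Without control replicate 3, for example, Grin2b differed by 0.51 on the log2 scale (standard error 0.30). The interval of Slc17a6 leaves out an equal level, but it covers a single gene and is not adjusted for the 13617 genes tested. After that adjustment Slc17a6 was not called (edgeR quasi-likelihood test, adjusted p = 0.559), so a decrease was not shown.

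The 4 genes varied more between libraries of one group than most tested genes did. Among controls, the highest level was 1.44 times the lowest for Slc17a6, 1.66 times for Slc17a7, 1.42 times for Grin1 and 1.75 times for Grin2b, beside a median of 1.2 times over all tested genes. Among high-dose libraries the same ratio was 1.45, 1.29, 1.6 and 2.04 times in that order, beside a median of 1.22 times. For Grin2b, 10.3% of tested genes had a wider spread among controls and 7.06% among high-dose libraries.

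High-dose replicate 2 set the transporter Slc17a6 against the receptor subunits. There, Slc17a6 was at 0.696 times the mean of the other 2 high-dose libraries, whereas Slc17a7 was at 1.22 times, Grin1 at 1.56 times and Grin2b at 1.9 times. As far from the other 2 high-dose libraries or farther, in either direction, were 15.6% of tested genes for Slc17a6, 34.8% for Slc17a7, 10.9% for Grin1 and 4.74% for Grin2b. In control replicate 3 all 4 genes lay above the mean of the other 2 controls, by 1.25 times for Slc17a6, 1.53 times for Slc17a7, 1.4 times for Grin1 and 1.6 times for Grin2b. As far from the other 2 controls or farther were 26.5% of tested genes for Slc17a6, 9.61% for Slc17a7, 14.9% for Grin1 and 7.94% for Grin2b. Relative to the rest of their own groups, the 2 libraries were therefore alike in higher Slc17a7, Grin1 and Grin2b and unlike in Slc17a6. In level, Slc17a7 in high-dose replicate 2 was 79.1 CPM, just under the control mean of 79.4 CPM.

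**Figure D3:**
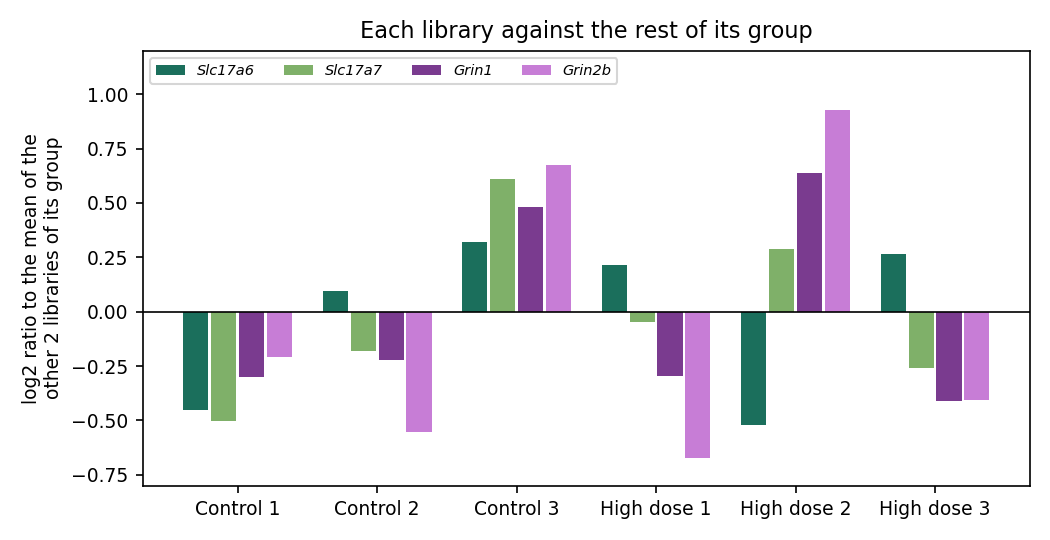
Log2 ratio of each gene's CPM in a library to its mean in the other 2 libraries of the same group (y axis), by library (x axis), 1 bar per gene. All 4 bars point up in control replicate 3, whereas in high-dose replicate 2 the Slc17a6 bar points down at -0.52 and the Grin2b bar up at 0.93.

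Grin1 and Grin2b, whose products assemble into the same receptor, had the most similar profiles of the 6 pairs of members. Pearson's r of log2 CPM over the 6 libraries was 0.95 (exact permutation p = 0.0181, Benjamini-Hochberg adjusted over the 6 pairs 0.108) and Spearman's rho 0.71 (exact permutation p = 0.136, adjusted 0.525). Of the 13616 other tested genes, 2.39% had a higher r with Grin1 than Grin2b had, and 2.88% had a higher r with Grin2b than Grin1 had. The relation rested on control replicate 3 and high-dose replicate 2, since r over the other 4 libraries was -0.071. The 6 points are bulk libraries of unequal depth, so r describes these samples alone.

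The transporters resembled each other less. Slc17a6 and Slc17a7 had an r of 0.38 and a rho of 0.26 (exact permutation p = 0.443 and 0.658, adjusted 0.463 and 0.79), and r was 0.8 without control replicate 3 and high-dose replicate 2. Slc17a7 and Grin1 had an r of 0.7 and a rho of 0.66 (exact permutation p = 0.117 and 0.175, adjusted 0.35 and 0.525), and r was 0.8 without control replicate 3 and high-dose replicate 3. For each pair, the libraries left out were the 2 farthest from the median of the gene named first. Here that kept high-dose replicate 2, where Grin1 was highest. In control replicates 1 and 2 and high-dose replicates 1 and 3, Slc17a7 was at 62.1, 72.9, 68.1 and 61.4 CPM. Grin1 was at 56.8, 59.0, 63.9 and 60.4 CPM there, a different order. Slc17a7 and Grin2b had an r of 0.58 and a rho of 0.37 (exact permutation p = 0.235 and 0.497, adjusted 0.463 and 0.79), with r at 0.63 without the same 2 libraries. High-dose replicate 2, where Grin2b was highest, was again kept. From high-dose replicate 3 through control replicate 1 and high-dose replicate 1 to control replicate 2, Slc17a7 rose at each step, from 61.4 to 72.9 CPM. Over the same steps Grin2b fell from 29.3 to 23.0 CPM, so the positive r rested on control replicate 3 and high-dose replicate 2. Slc17a6 had a negative r with both receptor subunits. For Grin1, r was -0.39 and rho -0.086 (exact permutation p = 0.463 and 0.919, adjusted 0.463 and 0.919). For Grin2b, r was -0.45 and rho -0.26 (exact permutation p = 0.357 and 0.658, adjusted 0.463 and 0.79). These r were -0.19 and -0.79 with control replicate 3 and high-dose replicate 2 left out. Among other tested genes, 25.9% had a lower r with Slc17a6 than Grin1 had, and 21.9% a lower r than Grin2b had. No pair passed after adjustment.

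The genes outside the list with the most similar profiles are known here by identifier alone. They were ENSRNOG00000012172 for Slc17a6 (r = 0.994), ENSRNOG00000021773 for Slc17a7 (r = 0.992), ENSRNOG00000006565 for Grin1 (r = 0.997) and ENSRNOG00000018387 for Grin2b (r = 0.997), each over 6 libraries. None of these 4 passed the threshold between groups (edgeR adjusted p = 0.884 for the first and 0.999 for the other three). An r above 0.95 was reached by 30 genes for Slc17a6 and 28 for Slc17a7, but by 298 for Grin1 and 354 for Grin2b. These were 2.19% of tested genes for Grin1 and 2.6% for Grin2b, against 0.22% for Slc17a6 and 0.206% for Slc17a7. Grin1 and Grin2b were both highest in high-dose replicate 2 and next highest in control replicate 3. A gene high in the same libraries can reach such an r, and the counts were not repeated without them.

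Ratios of 2 genes within a library do not depend on library scaling. For the 2 transporters, the log2 ratio of Slc17a6 to Slc17a7 counts was 0.31, 0.46 and 0.10 in control replicates 1, 2 and 3 and 0.19, -0.53 and 0.37 in high-dose replicates 1, 2 and 3. Slc17a6 had more reads than Slc17a7 in 5 of 6 libraries, the exception being high-dose replicate 2. The groups overlapped and differed by -0.28 (exact two-sided permutation test, p = 0.6, adjusted over 6 ratios 0.6). Without high-dose replicate 2 the difference was -0.0094, and without that library and control replicate 3 it was -0.10.

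For the 2 receptor subunits, the log2 ratio of Grin2b to Grin1 counts was -1.06, -1.36 and -1.01 in control replicates 1, 2 and 3. It was -1.32, -0.89 and -1.04 in high-dose replicates 1, 2 and 3. The groups overlapped, and their means of -1.14 ± 0.19 in controls and -1.09 ± 0.22 in high-dose libraries (SD, n = 3 each) differed by 0.055 (exact two-sided permutation test, p = 0.6, adjusted 0.6). High-dose replicate 2, which had the highest level of both subunits, also had the highest ratio.

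Transporter reads relative to Grin1 reads were lower in each high-dose library than in any control, a comparison chosen after the values were seen. The log2 ratio of Slc17a6 to Grin1 was 0.44, 0.76 and 0.45 in control replicates 1, 2 and 3 and 0.28, -0.82 and 0.40 in high-dose replicates 1, 2 and 3. That of Slc17a7 to Grin1 was 0.13, 0.31 and 0.35 in the controls and 0.091, -0.29 and 0.025 in the high-dose libraries, in the same order. The gaps between the groups were narrow, 0.40 against 0.44 for Slc17a6 and 0.091 against 0.13 for Slc17a7. These edges were control replicate 1 and high-dose replicate 3 for Slc17a6, and control replicate 1 and high-dose replicate 1 for Slc17a7. Between them, the counting intervals of each gene of the ratio overlapped. Counting error of the ratios was not computed, so the groups were not shown to be apart by more than that error. Both ratios share the Grin1 counts and are not 2 separate observations. Among all other tested genes, 3.47% had a ratio to Grin1 that was lower in every high-dose library than in any control, a share that gives no test here because the reference gene and the direction were picked for this pattern. The group differences were -0.60 and -0.32, and no p is given, since groups of 3 picked for not overlapping have the smallest p the design allows. They were -0.21 and -0.20 without high-dose replicate 2, and -0.26 and -0.16 with control replicate 3 left out as well.

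The ratios to Grin2b overlapped between groups for both transporters. The group difference of the log2 ratio was -0.66 for Slc17a6 to Grin2b and -0.37 for Slc17a7 to Grin2b (exact two-sided permutation test, p = 0.4 and 0.3, adjusted 0.6 each). These ratios were not planned either, and the adjustment ran over all 6 ratios, including those of the transporters to Grin1. In high-dose replicate 2 Slc17a6 and Grin2b had nearly equal counts, at a ratio of 1.05, where the other 5 libraries had 2.71 to 4.36 Slc17a6 reads per Grin2b read.

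**Figure D4:**
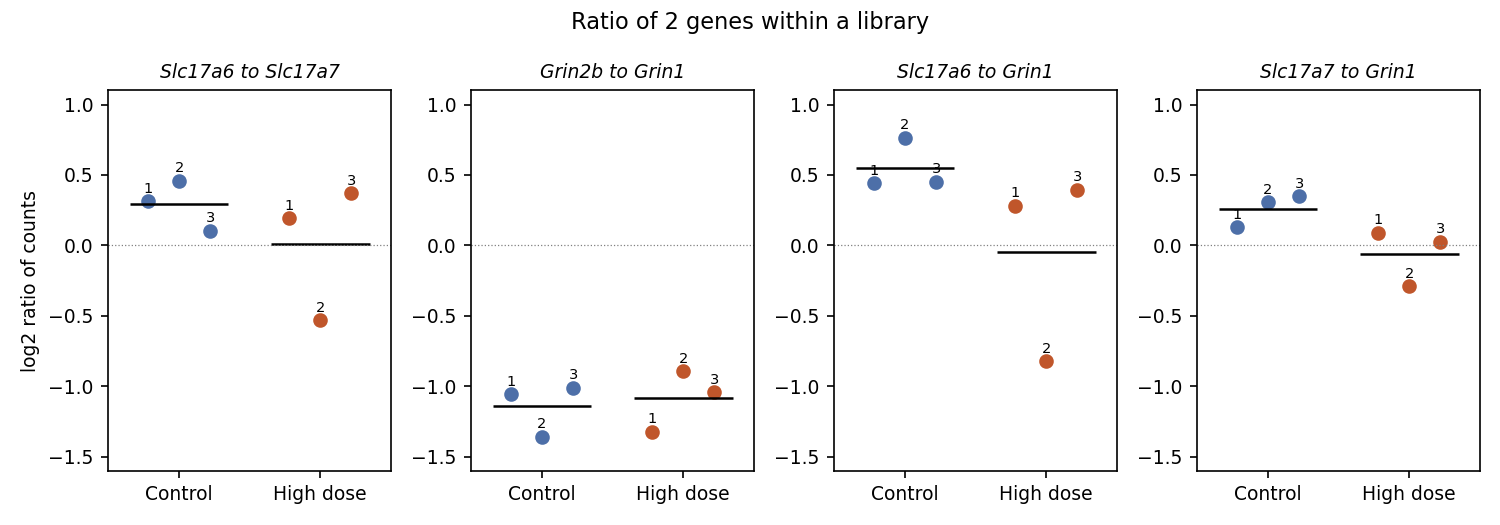
Log2 ratio of the counts of 2 genes within each library (y axis), for controls (blue) and high-dose libraries (orange), numbered by replicate, with the group mean as a black line. The Grin2b to Grin1 ratio overlaps between the groups, whereas both ratios to Grin1 of the transporters lie lower in each high-dose library than in any control, by gaps as small as 0.40 against 0.44 and 0.091 against 0.13.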

How the data were processed

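The authors deposited 1 table of raw read counts per gene for the 6 libraries, not normalized. Per the labels' protocols, poly(A) RNA was made into strand-marking libraries and read as single-end reads. Build rn6 with STAR, HTSeq and FastQC is listed in the submitters' processing notes. Tool versions, annotation and strand setting: not given in the sources used here. How reads of overlapping genes were counted is therefore not known. Columns were tied to samples by the library name in the description and to groups by the titles.

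The rule for the members uses no measured value, but members, lists and alternatives were chosen with earlier results of these data known. Counts were fitted in R 4.3.3 with edgeR 4.0.16 (robust quasi-likelihood F test, TMM factors, a group term alone, and filterByExpr at a minimum count of 10 and total of 15). Voom used limma 3.58.1. P-values were adjusted by Benjamini-Hochberg over all 13617 tested genes with a threshold of 0.05. The standard error is the size of the log2 fold change divided by the square root of F. Log2 CPM for correlations used a prior count of 2. The 4 members were always named, with the gene of highest r to each. Ratios used exact permutation tests (scipy 1.17.1). DESeq2 1.42.0, limma-voom, other scalings and filters, a replicate block and leaving out libraries were the alternatives. The fits were tested on simulated data.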

Additional observations from a re-analysis of the deposited data

How the results depend on the processing

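Slc17a6 stayed lower in high-dose forebrain and past no adjusted threshold in all 14 alternatives, with log2 fold changes from -0.58 to -0.18 and adjusted p from 0.401 to 1.00. Leaving out single libraries gave -0.58 to -0.29 for Slc17a6, -0.34 to 0.044 for Slc17a7, -0.074 to 0.35 for Grin1 and -0.14 to 0.51 for Grin2b. Reversals were limited to 3 values, namely 0.044 for Slc17a7 when control replicate 3 was left out and, when high-dose replicate 2 was, -0.074 for Grin1 and -0.14 for Grin2b, and the cause was not tested. For these 3 genes the other 13 alternatives each kept the direction, and none of the 14 passed the threshold. The log2 ratio of Slc17a6 to Slc17a7 differed by -0.46 to -0.0094 with single libraries left out. That of Grin2b to Grin1 differed by -0.053 to 0.17, reversing to -0.053 when control replicate 2 was left out and to -0.042 when high-dose replicate 2 was.

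The number of genes past the threshold was 1 in the reported fit, 198 with DESeq2, 26 with no low-count filter and 412 with control replicate 3 and high-dose replicate 2 both left out. Those 2 libraries were picked in these same data by their departure from their groups. Leaving them out can narrow the spread within groups, so the 412 is not comparable with the other counts. It was 0 to 24 with single libraries left out (24 without control replicate 3, 10 without high-dose replicate 2, 3 without high-dose replicate 1). Under a replicate block on the number it was 0 by edgeR, with 786 at an unadjusted p under 0.05, and Slc17a6 had a log2 fold change of -0.45 (adjusted p = 0.825). Deviations of same-numbered libraries correlated at 0.23, -0.27 and -0.21. For 2 of 6 libraries the best match carried the same number, so no pairing was assumed. Within equal numbers, as a replicate block, the ratio differences were the same, with exact sign-flip permutation p of 0.75 for the transporters and 1 for the subunits. No such p is given for each transporter to Grin1, a ratio chosen after its values were seen, since groups that do not overlap fix it in advance. Each member had between 310 and 2124 counts per library, with the fewest for Grin2b, at 310 to 945. The spread of Grin2b between libraries still exceeded counting error. Its counting interval was 23.7 to 27.5 CPM in high-dose replicate 1 and 48.9 to 55.6 CPM in high-dose replicate 2.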
